A study of Mus musculus with 18 samples.

Results

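The mRNAs of 10 presynaptic active zone genes were followed through ac4C peak tables of the mouse hippocampus: Rims1, Rims2, Unc13a, Rimbp2, Bsn, Pclo, Erc1, Erc2, Ppfia1 and Ppfia3. Members were chosen by gene name, and every peak listed under one of these names was taken, by exon and by mouse. They carried 177 of the 52494 listed peaks, and 9 of the 10 genes were among the 7598 mRNAs with a peak in any mouse. Unc13a, which encodes the vesicle-priming protein Munc13-1, had no listed peak in any of the 6 mice.

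N4-acetylcytidine (ac4C) is an acetylated cytidine that the enzyme Nat10 writes into RNA. acRIP-seq pulls down RNA fragments with an antibody to ac4C (the IP library) and sets them against the untouched RNA of that animal (the input library). The fold enrichment of a peak is its IP signal relative to input, after subtraction of the IgG signal according to the methods. The data came from 3 5xFAD mice and 3 wild-type (WT) mice, all 6 months old, with an IP, an input and an IgG library for each mouse (18 libraries). Per the study's methods, 5xFAD mice carry human APP with the Swedish, Florida and London mutations under the mouse Thy-1 promoter, which acts mainly in neurons, and a mutant human presenilin-1 on a C57BL/6J background. The WT mice carry neither transgene, and the sources used here do not give the sex of these 6-month animals. Whole hippocampi were used, so fewer cells that carry an enriched mRNA and less enrichment per cell cannot be told apart.

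The active zone is the patch of presynaptic membrane where synaptic vesicles dock, are primed and fuse. RIM proteins tie vesicles to calcium channels and recruit Munc13, RIM-binding proteins bind RIMs and the channels, and ELKS proteins (the Erc genes) and liprin-α proteins (the Ppfia genes) are further scaffold layers. Bassoon and Piccolo are very large proteins that span the cytomatrix and help to hold the vesicle cluster in place.

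The mice differed before any gene was looked at. Between 8459 and 10234 peaks were listed in a 5xFAD mouse and between 7434 and 8375 in a WT mouse. Peaks had a median fold enrichment of 7.63, 7.44 and 13.1 in 5xFAD mice 1, 2 and 3, and 7.16, 7.10 and 6.88 in WT mice 1, 2 and 3, so 5xFAD mouse 3 stood apart. Profiles also followed the replicate number: over the 3851 mRNAs listed in 2 or more mice of each genotype (overlay mRNAs), log2 summed values of the 5xFAD and the WT mouse with the same number had correlations of 0.81, 0.77 and 0.55, while mice of 1 genotype had correlations of 0.27 to 0.36. The sources used here do not say what the number stands for, and 5xFAD minus WT is therefore also given within each number. Because a difference in scale between tables enters every comparison, values were also set on one scale, by 1 factor per mouse that gives mRNAs with a peak in all 6 mice the same median. The lowest listed false discovery rate (FDR) of an active zone peak was 9.29%, so by this column none met the 5% threshold named in the methods, although all listed peaks were kept here. The median listed FDR of active zone peaks was 29.8% to 100% in 5xFAD mice, with the 100% in 5xFAD mouse 3, and 47.9% to 68.0% in WT mice.

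Merging the active zone peaks of the 6 mice where they overlapped gave 67 exon regions, of which 38 were found in both genotypes, 21 in 5xFAD mice only and 8 in WT mice only. Over the whole series 30.5% of 20043 regions were found in 5xFAD only and 12.8% in WT only, close to the 31.3% and 11.9% here. A single mouse held 22 of the 67 regions, and 10 of these 22 came from 5xFAD mouse 3. The 2 mice of a number were the most alike in numbers 1 and 2. Numbers 1, 2 and 3 shared 22 of 40, 22 of 38 and 14 of 41 regions between the 5xFAD and the WT mouse, whereas 5xFAD and WT mice of different numbers shared 20.8% to 42.2% and mice of 1 genotype 24.5% to 43.5%.

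**Figure D1:**
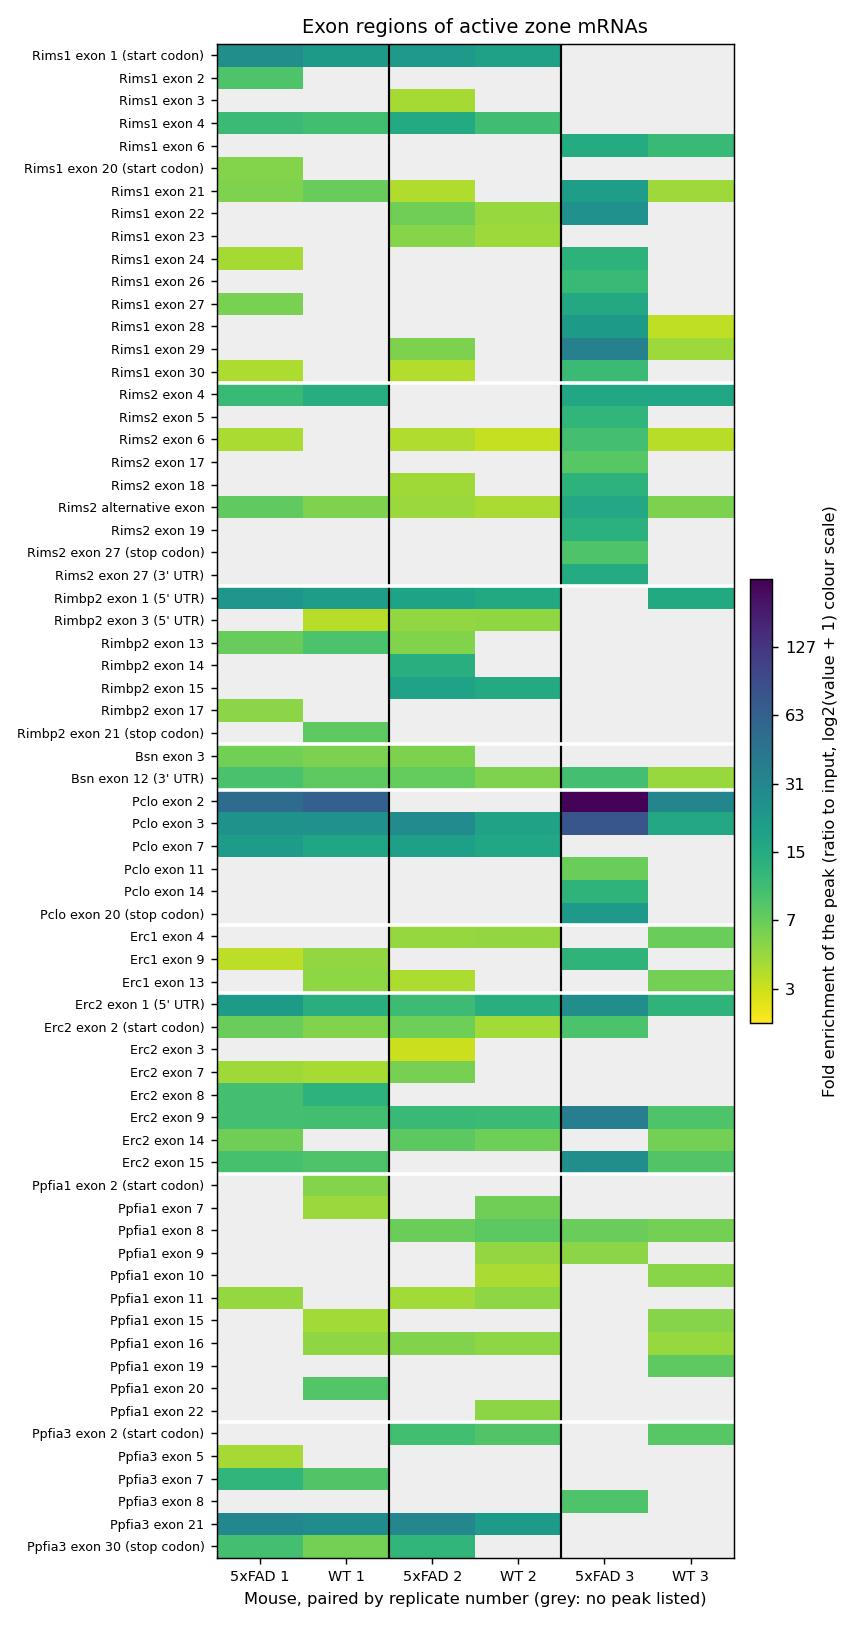
Fold enrichment (colour, ratio to input on a log2(value + 1) scale) of each of the 67 exon regions of 9 active zone mRNAs (rows, exon numbers of the RefSeq transcript) in each mouse (columns, 5xFAD left of WT within each replicate number). Grey cells have no listed peak. Filled cells often come in pairs of the same number, such as Rims1 exon 1 in numbers 1 and 2 and Rims2 exon 4 in numbers 1 and 3.

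Of the 177 active zone peaks, 136 (76.8%) lay in coding exons that hold neither the start nor the stop codon, against 51.3% of all other peaks. Start codon exons held 14 active zone peaks (7.91% against 19.9% elsewhere), stop codon exons 6 (3.39% against 18.4%), 5' UTR exons 14 and 3' UTR exons 7. These peaks recur over mice in 67 regions, and the RefSeq transcripts of the listed members have 12 to 36 exons each. The part of exon number in these shares was not tested. Most active zone peaks (94.4%) coincided with 1 annotated exon from end to end, so a listed peak places the enrichment in an exon without saying where along it. Cytosine, the base that can carry the mark, made up a median of 25.4% of the regions found in at least 2 mice of either genotype (also 38, but not the same 38), and 29.6% of all 10025 such regions.

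Only 5 regions were found in all 6 mice: exons 1 and 9 of Erc2, exon 3 of Pclo, the last exon of Bsn and an alternative exon of Rims2. A sixth region, exon 30 of Rims1, was the only one found in every mouse of 1 genotype and no mouse of the other. Sequences follow for the coding regions among these, because they are the exons whose detection was most and least alike between genotypes. They are read from the RefSeq copy of the GRCm38 (mm10) genome on the strand of the gene, 5' to 3', and capitals mark CNNCNNCNNCNNC, a spaced run of 5 cytosines that has been described in ac4C-bearing RNA. Pclo exon 3 is 1392 bases long, and the 150 bases with the most such matches are shown. Coordinates are chr14:28021962-28022102 (plus strand, exon 9 of 16) for Erc2, chr5:14539748-14539897 (plus strand, within exon 3 of 25) for Pclo, chr15:39534838-39535017 (plus strand) for Rims2 and chr1:22373344-22373510 (minus strand, exon 30 of 36) for Rims1.
Erc2 exon 9: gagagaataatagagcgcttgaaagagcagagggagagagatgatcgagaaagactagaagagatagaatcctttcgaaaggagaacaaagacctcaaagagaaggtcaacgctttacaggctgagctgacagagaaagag
Pclo exon 3, 150 of 1392 bases: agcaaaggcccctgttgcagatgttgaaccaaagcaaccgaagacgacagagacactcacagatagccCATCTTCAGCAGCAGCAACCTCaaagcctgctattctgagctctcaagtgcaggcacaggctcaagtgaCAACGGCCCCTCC
Rims2 alternative exon: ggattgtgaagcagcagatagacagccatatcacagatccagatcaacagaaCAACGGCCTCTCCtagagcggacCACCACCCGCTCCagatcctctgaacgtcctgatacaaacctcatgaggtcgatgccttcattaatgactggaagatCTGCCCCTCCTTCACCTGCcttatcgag
Rims1 exon 30: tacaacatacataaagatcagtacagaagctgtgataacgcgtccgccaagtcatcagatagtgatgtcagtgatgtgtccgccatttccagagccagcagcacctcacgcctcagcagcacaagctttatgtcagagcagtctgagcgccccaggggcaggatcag

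Overlapping matches run together in capitals. The motif occurred 5 times in the Rims2 exon (0 times on its other strand), 14 times in the whole Pclo exon, and 0 times on either strand of Erc2 exon 9 and of Rims1 exon 30. Among regions within 10% of the same length, 47.6% held it for the length of the Rims2 exon, 93.5% for Pclo, 34.9% for Erc2 and 43.9% for Rims1. Erc2 exon 9, enriched in every mouse, was also poor in cytosine (13.5%), and a match marks letters in the exon and not a site. Over the 38 regions found in at least 2 mice of either genotype, 47.4% held the motif on the gene's strand, against 60.9% of all 10025. On the other strand the shares were 47.4% and 52.2%. The 38 regions were also shorter, with a median length of 197.5 against 239 bases, and these shares were not matched for length.

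For each mRNA, fold enrichments of its peaks were summed, 0 where no peak was listed, and 5xFAD and WT mice were compared on log2(sum + 1) with limma over all 3851 overlay mRNAs. All 9 listed members were overlay mRNAs, so 0 of 9 were AD unique (listed in 2 or more 5xFAD mice but not in 2 WT mice, with a mean sum + 1 at least 2 times higher) or AD absent (the same turned round), classes that took 15% and 3.97% of the 5444 mRNAs listed in 2 or more mice of either genotype. No member passed an adjusted p under 0.05, and neither did any other overlay mRNA (0% of 3851; 92 higher and 2 lower before adjustment at the same threshold, or 178 and 2 with the replicate number as a block). The members whose genotypes did not overlap went opposite ways: Rims1 had more enrichment and more peaks in every 5xFAD mouse, and Ppfia1 less enrichment and fewer peaks. The median difference was 0.68 on the log2 scale over the 9 members and 0.46 over all overlay mRNAs, and on one scale 0.08 and -0.04. Without 5xFAD mouse 3 these medians were 0.41 over the members and 0.58 over the 3209 overlay mRNAs that were left.

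**Figure D2:**
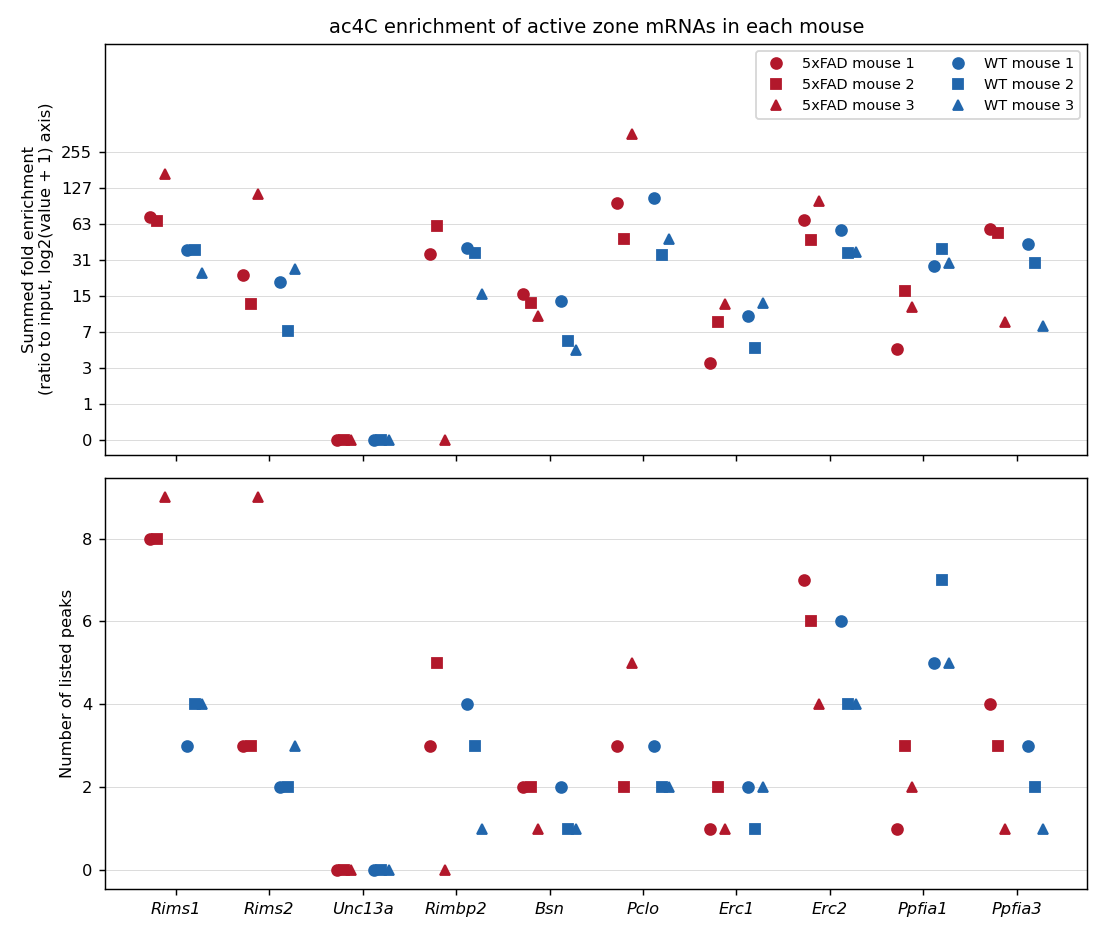
Summed fold enrichment (top, ratio to input on a log2(value + 1) axis) and number of listed peaks (bottom) of each active zone mRNA, with 1 point per mouse and 5xFAD mice left of WT mice. Rims1 lies between 66.8 and 167 in 5xFAD mice and between 23.7 and 38.1 in WT mice, Ppfia1 lies lower in all 3 5xFAD mice, and Unc13a is at 0 throughout.

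Rims1 encodes RIM1, the central organiser that links vesicles, Munc13 and calcium channels. Its summed fold enrichment was 71.8, 66.8 and 167 in 5xFAD mice 1, 2 and 3, and 38.1, 37.7 and 23.7 in WT mice 1, 2 and 3. The genotypes did not overlap, and the 5xFAD mouse was the higher one in each number, most of all in number 3. The log2 difference was 1.49 ± 0.56 (SE; limma adjusted p = 0.901, unadjusted p = 0.0371), and 1.07 ± 0.39 without 5xFAD mouse 3. On one scale it was 0.89 ± 0.44 (limma unadjusted p = 0.0910), and the genotypes still did not overlap. Such a gap without overlap, 5xFAD higher, was seen for 15.8% of overlay mRNAs as listed and 3.53% on one scale.

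The number of Rims1 peaks separated the genotypes more sharply, at 8, 8 and 9 in 5xFAD mice against 3, 4 and 4 in WT mice. On log2(number + 1) the difference was 1.01 ± 0.12 (SE; limma adjusted p = 0.147), in a comparison that called 0.286% of overlay mRNAs and no member. A higher number in every 5xFAD mouse than in every WT mouse was seen for 2.41% of overlay mRNAs. With the same number of top-scoring peaks taken from each mouse, Rims1 had 5, 7 and 9 peaks in 5xFAD mice and 3, 4 and 4 in WT mice, still without overlap, as was the case for 0.942% of 3397 mRNAs. The log2 difference in these equal-length counts was 0.75 ± 0.22 (SE; limma unadjusted p = 0.0219) and did not pass adjustment. Equal numbers even out the list lengths but not the scale of the peaks. The part of list length in the Rims1 counts was not tested.

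Most of the additional Rims1 peaks lay towards the 3' end of the coding sequence. Rims1 regions fell into 2 stretches, exons 1 to 6 and exons 20 to 30 of the 36 exons of RefSeq NM_053270, and this split was drawn after the values were seen. Regions in exons 20 to 30 were listed under NM_053270, except exon 26, and those in exons 1 to 6 under other transcripts. Exon 20, listed in 5xFAD mouse 1 alone at 5.57, was also classed as a start codon exon. In exons 20 to 30 there were 5, 5 and 8 listed regions in 5xFAD mice 1, 2 and 3 and 1, 2 and 3 in WT mice 1, 2 and 3. In exons 1 to 6 there were 3, 3 and 1 against 2, 2 and 1, nearly the same in both mice of a number. Summed fold enrichment over exons 20 to 30 was 25.4, 25.5 and 152 in 5xFAD mice and 7.02, 9.19 and 12.3 in WT mice, while over exons 1 to 6 it was 46.4, 41.3 and 15 against 31.1, 28.5 and 11.4. The peaks of 5xFAD mouse 3 in exons 20 to 30 had a listed FDR of 70.5% to 100%. Caller scores in this stretch ran from 42.0 to 189 in 5xFAD mice 1 and 2 and from 48.4 to 253 in WT mice, where the lowest score in the tables is 40. No share over all mRNAs and no count with equal list lengths is given for this split.

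Within the 5' stretch, exons 1, 4 and 6 were listed by replicate number. Exon 1, a start codon exon, had fold enrichments of 26.8 and 22.0 in 5xFAD mice 1 and 2 and 21.0 and 18.3 in WT mice 1 and 2, and no listed peak in either mouse 3. Exon 4 showed the same pattern, at 10.9 and 15.2 against 10.1 and 10.2. Exon 6 was the reverse, listed only in the mice numbered 3, at 15 in 5xFAD and 11.4 in WT. Exons 2 and 3 broke the pattern, each listed in a single 5xFAD mouse (8.71 in mouse 1 and 4.16 in mouse 2) and in no WT mouse.

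In the 3' stretch, exon 30, printed above, reached 3.89, 3.73 and 10.8 in 5xFAD mice 1, 2 and 3 and was listed in no WT mouse. Its peaks were weak in 5xFAD mice 1 and 2, with caller scores of 60.3 and 62.2 where the lowest score in the tables is 40, and their listed FDR was 44.8% and 51.6%. In 5xFAD mouse 3 its peak had a score of 141 and a listed FDR of 100%. In limma over the 10025 regions found in at least 2 of 3 mice of either genotype, exon 30 had an adjusted p of 0.161, and no region of any gene passed (0%; 458 higher and 54 lower before adjustment). A region enters that fit through either genotype alone, so one listed in a single genotype differs by how it was taken in, and 238 of all 20043 regions shared the pattern of exon 30. Its adjusted p was 0.00656 without 5xFAD mouse 3, in a fit that called 9.37% of all regions, 0.0179 with a pseudocount of 0.1, which called 2.83%, and 0.0118 over regions found in 3 of 3 mice, which called 7.79%. It reached up to 0.234 in the other alternatives that could be fitted. With list lengths made equal, exon 30 dropped out of the fit, since only its peak in 5xFAD mouse 3 was left. Exon 21 was found in 5 of 6 mice, at 5.80, 3.86 and 19.8 in 5xFAD mice and 7.02, 0 and 4.50 in WT mice, and the genotypes overlapped. Exons 24 and 27 were listed in 5xFAD mice 1 and 3 and in no WT mouse.

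**Figure D3:**
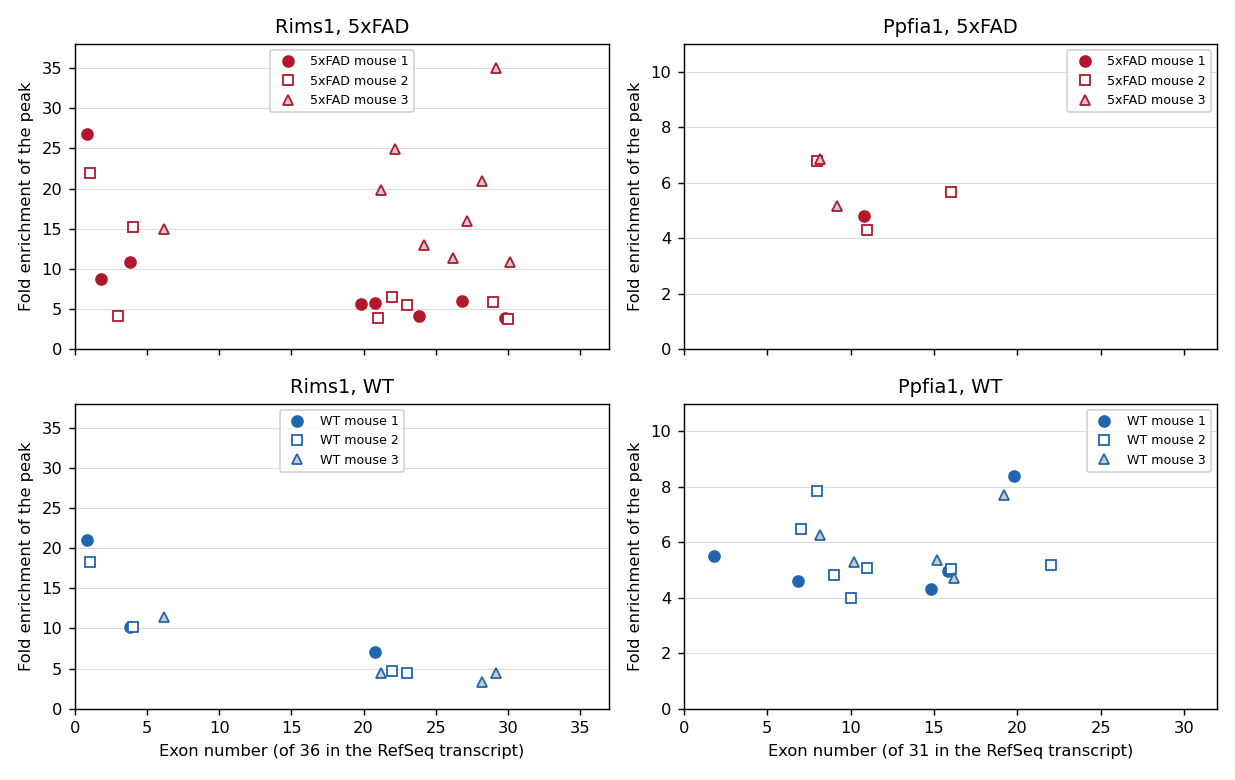
Fold enrichment of each listed peak (vertical axis, ratio to input) against exon number (horizontal axis) for Rims1 (left) and Ppfia1 (right), with 5xFAD mice in the upper panels and WT mice in the lower panels, and marker shapes for mice 1, 2 and 3. Rims1 has 5, 5 and 8 regions in 5xFAD mice and 1, 2 and 3 in WT mice between exons 20 and 30, and Ppfia1 has 6 peaks in all over the 5xFAD mice and 17 over the WT mice.

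Rims2 encodes RIM2, the paralogue that shares the tethering and priming roles of RIM1. Summed fold enrichment was 22.8, 12.8 and 112 in 5xFAD mice 1, 2 and 3, and 20.1, 7.17 and 25.7 in WT mice 1, 2 and 3. The 5xFAD mouse was higher within each number, but the genotypes overlapped and 5xFAD mouse 3 lay far above the rest. The difference was 1.00 ± 0.94 on the log2 scale (SE; limma adjusted p = 0.904), and 0.12 without 5xFAD mouse 3. Of the 9 Rims2 regions all were listed in 5xFAD mouse 3 and 5 in no other mouse, among them the last coding exon and its 3' UTR. Those 5 each had a listed FDR of 100%. The alternative exon printed above was the steady one, at 7.51, 4.58 and 15.9 in 5xFAD mice and 5.77, 3.97 and 5.83 in WT mice. This exon is annotated in RefSeq NM_001256382 and not in NM_053271, the transcript most often listed for Rims2. Exon 4, the strongest by its mean over the 6 mice, again followed the number: 11.3 and 16.3 in 5xFAD mice 1 and 3, 14.3 and 16.3 in WT mice 1 and 3, and no peak in either mouse 2.

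Rimbp2 encodes RIM-binding protein 2, which bridges RIMs and voltage-gated calcium channels. Its summed fold enrichment was 35.1 and 60.7 in 5xFAD mice 1 and 2 with no peak listed in 5xFAD mouse 3, and 39.6, 35.7 and 15.5 in WT mice 1, 2 and 3. 5xFAD mouse 3 had none and WT mouse 3 the lowest value of the mice with a peak, so both mice of number 3 were low. On the log2 scale the difference was -1.15 ± 1.60 (SE; limma adjusted p = 0.943) and became 0.70 without 5xFAD mouse 3. The first exon, in the 5' UTR, was the strongest by its mean over the 6 mice, at 22.9 and 17.7 in 5xFAD mice 1 and 2 and at 19.3, 15.5 and 15.5 in the WT mice. Exon 15 was listed only in the mice numbered 2, at 18.2 in 5xFAD and 15.2 in WT.

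Bsn encodes Bassoon, and peaks were listed in only 2 of its 12 exons. Summed fold enrichment was 15.8, 13.0 and 9.94 in 5xFAD mice 1, 2 and 3, and 13.5, 5.76 and 4.71 in WT mice 1, 2 and 3. The 5xFAD mouse was higher in each number, but 5xFAD mouse 3 lay below WT mouse 1, and on one scale the 5xFAD mouse was higher in 1 of 3 numbers. The log2 difference was 0.73 ± 0.55 (SE; limma adjusted p = 0.901), and 0.19 on one scale. The last exon, which is 3' UTR (chr9:108096022-108099897, minus strand), was found in all 6 mice, at 9.32, 7.15 and 9.94 in 5xFAD mice and 7.70, 5.76 and 4.71 in WT mice. Its log2 difference was 0.48 ± 0.54 as listed (SE; limma adjusted p = 0.856) and -0.05 on one scale.

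Pclo encodes Piccolo, one of the largest proteins of the active zone, and held the strongest single peaks of the set. Its summed fold enrichment was 95.5, 47.3 and 361 in 5xFAD mice 1, 2 and 3, and 105, 34.0 and 47.0 in WT mice 1, 2 and 3. Only 5xFAD mouse 3 lay outside the range of the other mice, and the 5xFAD mouse of number 1 was below its WT counterpart. On the log2 scale 5xFAD differed from WT by 1.08 ± 0.89 (SE; limma adjusted p = 0.901), 0.47 on one scale and 0.28 without 5xFAD mouse 3. Exon 2 reached 51.2 and 244 in 5xFAD mice 1 and 3 and 63.0 and 31.2 in WT mice 1 and 3, and was listed in neither mouse numbered 2. Exon 3 was found in all 6 mice, at 24.2, 28.2 and 75.8 in 5xFAD mice and 25.3, 18.0 and 15.8 in WT mice, each with a caller score of 3100, the highest score the active zone peaks reached. Exon 7 was listed in the mice numbered 1 and 2 of both genotypes and in neither mouse numbered 3. Exons 2 and 3 overlap Gm26918 and exon 7 overlaps Gm26954 on the opposite strand, and the sources used here do not say whether counting kept the strands apart.

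Erc1 and Erc2 encode the ELKS proteins, of which Erc2 is the one concentrated at brain active zones. For Erc2, summed fold enrichment was 67.8, 45.7 and 99.0 in 5xFAD mice 1, 2 and 3, and 55.8, 35.7 and 36.2 in WT mice 1, 2 and 3. The 5xFAD mouse was higher in each number, although on one scale in 1 of 3, and the genotypes overlapped. The log2 difference was 0.68 ± 0.51 (SE; limma adjusted p = 0.901), and 0.08 on one scale.

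A pair of Erc2 exons was listed in every mouse. Exon 9, printed above, stood at 9.80, 11.4 and 36.4 in 5xFAD mice 1, 2 and 3 and at 10.1, 10.8 and 8.73 in WT mice 1, 2 and 3, so that 4 of the 6 values lay between 9.80 and 11.4 and only 5xFAD mouse 3 was far above them. Exon 1, in the 5' UTR (chr14:27622442-27622614, plus strand), stood at 20.9, 10.8 and 26.6 against 14.3, 13.9 and 12.6. The log2 differences were 0.66 ± 0.69 for exon 9 and 0.40 ± 0.59 for exon 1 (SE; limma adjusted p = 0.856 and 0.862), and 0.09 and -0.18 on one scale. Exon 1 was rich in cytosine (46.8%), unlike exon 9.

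Erc1, expressed in many tissues, had low sums, at 3.45, 8.71 and 12.7 in 5xFAD mice 1, 2 and 3, and 9.96, 4.90 and 13.0 in WT mice 1, 2 and 3. The genotypes covered nearly the same range, with a log2 difference of -0.20 ± 0.64 (SE; limma adjusted p = 0.997). Its 3 regions, exons 4, 9 and 13, were each found in 3 of the 6 mice.

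Ppfia1 and Ppfia3 encode liprin-α proteins, adaptors that help to assemble presynaptic sites and that bind RIM and ELKS proteins. Ppfia1 went the opposite way to Rims1. Its summed fold enrichment was 4.80, 16.8 and 12.02 in 5xFAD mice 1, 2 and 3, and 27.8, 38.5 and 29.3 in WT mice 1, 2 and 3, so every 5xFAD mouse lay below every WT mouse. The log2 difference was -1.56 ± 0.58 (SE; limma adjusted p = 0.901, unadjusted p = 0.0346) and -2.13 ± 0.55 on one scale (unadjusted p = 0.00869, limma adjusted p = 1.00). Values without overlap and lower in 5xFAD were seen for 0.312% of overlay mRNAs as listed and 3.79% on one scale.

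Peak numbers of Ppfia1 were 1, 3 and 2 in 5xFAD mice and 5, 7 and 5 in WT mice, although 5xFAD mice had the longer lists. Lower numbers in every 5xFAD mouse were seen for 0.104% of overlay mRNAs. With equal numbers of top-scoring peaks there were 0, 1 and 2 in 5xFAD mice and 3, 7 and 5 in WT mice, a separation seen for 0.530% of 3397 mRNAs. The log2 difference in the number of peaks was -1.19 ± 0.30 (SE; limma adjusted p = 1).

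All Ppfia1 peaks were weak, between 4.01 and 8.40, and the genotypes differed in how many exons were listed. Exon 16 was found in 5xFAD mouse 2 alone, at 5.67, and in 3 of 3 WT mice, at 4.96, 5.03 and 4.70. Exons 7, 10 and 15 were each listed in no 5xFAD mouse and in 2 WT mice. The WT peaks of these exons had caller scores of 44.2 to 129, where the lowest score in the tables is 40. Their listed FDR was 64.05% to 83.53%. Exon 8, by contrast, was listed in both mice numbered 2 and both numbered 3, at 6.80 and 6.86 in 5xFAD and 7.85 and 6.27 in WT. Of the 11 Ppfia1 regions 0 were found in 5xFAD only and 7 in WT only, whereas of the 15 Rims1 regions 7 were found in 5xFAD only and 0 in WT only. Over all regions the shares were 30.5% in 5xFAD only and 12.8% in WT only. The share in 5xFAD only was higher than that of Rims1 for Rims2 (6 of 9) and Pclo (3 of 6), and lower for the other listed members.

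Ppfia3, the liprin-α found mainly in brain, had summed fold enrichments of 57.2, 53.2 and 8.79 in 5xFAD mice 1, 2 and 3, and 42.6, 29.5 and 8.05 in WT mice 1, 2 and 3. Both mice numbered 3 were about equally low, and the number separated the values more than the genotype did. Its log2 difference was 0.45 ± 0.97 (SE; limma adjusted p = 0.993) and -0.11 on one scale. Exon 21 was split by number in the same way, at 31.1 and 31.0 in 5xFAD mice 1 and 2 and 27.7 and 20.8 in WT mice 1 and 2, with no listed peak in either mouse 3.

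Within a replicate number, 5 members (Rims1, Rims2, Bsn, Erc2 and Ppfia3) were higher in the 5xFAD mouse in 3 of 3 numbers as listed, where 36.4% of overlay mRNAs were, and Ppfia1 was lower in 3 of 3, where 1.58% were. On one scale Rims1 alone remained higher in 3 of 3 numbers (10.2% of overlay mRNAs), and Ppfia1 remained lower (12.6%). The 5xFAD minus WT difference of Rims1 was 0.90, 0.81 and 2.76 in numbers 1, 2 and 3 as listed and 0.53, 0.45 and 1.68 on one scale. For Ppfia1 it was -2.31, -1.15 and -1.22 as listed and -2.64, -1.51 and -2.25 on one scale. With the number as a block, the unadjusted p was 0.0534 for Rims1 and 0.0195 for Ppfia1, and neither passed adjustment (limma adjusted p = 0.591 each).

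**Figure D4:**
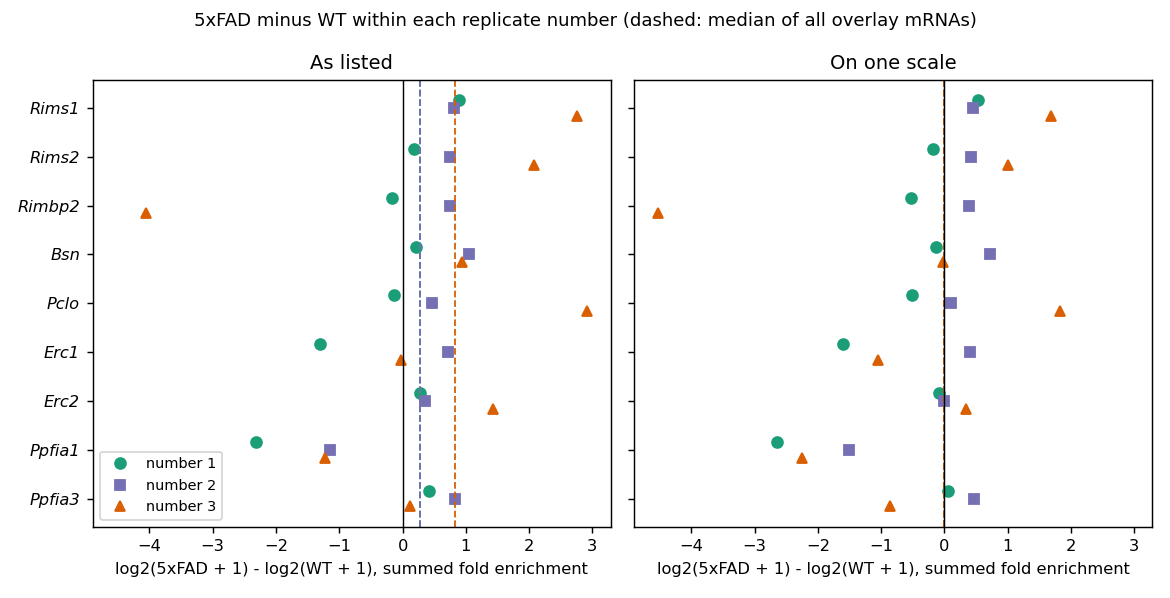
Difference in log2(summed fold enrichment + 1), 5xFAD minus WT, within replicate numbers 1, 2 and 3 (points) for 9 active zone mRNAs, as listed (left) and on one scale (right). Dashed lines mark the median of all overlay mRNAs in each number, at 0.27, 0.28 and 0.84 as listed. Rims1 lies to the right and Ppfia1 to the left of 0 in all 3 numbers on both scales, and Rimbp2 in number 3 lies at -4.05 as listed because 5xFAD mouse 3 had no Rimbp2 peak.

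Regions listed in both mice of a number compare peak strength only where both peaks were detected, so detection still decides which regions enter. The lowest listed fold enrichment was 4.06 in 5xFAD mouse 3 and 2.29 in WT mouse 3. In numbers 1 and 2, 22 active zone regions each were listed in both mice, and the median ratio of 5xFAD to WT fold enrichment was 1.09 and 1.18, against 1.17 and 1.16 over all regions. In number 3, 14 regions were shared with a median ratio of 2.92, against 2.02 over all regions. The ratios of numbers 1 and 2 lay between 0.71 and 1.58 in every shared active zone region.

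Other genes of the presynaptic terminal were taken as 6 lists: active zone relatives, liprin and ELKS partners, presynaptic calcium channels, docking and fusion proteins, synaptic vesicle proteins and adhesion proteins. Of their 81 genes 71 had a peak in any mouse and 47 were overlay mRNAs, none called by limma. Of the 47, 36 were higher and 11 lower in 5xFAD (median log2 difference 0.58), and 26 and 21 on one scale (median 0.07), against 3077 and 774 of the 3851 overlay mRNAs as listed and 1795 and 2056 on one scale. The vesicle phosphoprotein synapsin I (Syn1) stood at 109, 58.5 and 210 in 5xFAD mice 1, 2 and 3 and at 64.4, 41.0 and 34.7 in WT mice 1, 2 and 3, so the genotypes overlapped (log2 difference 1.27, limma adjusted p = 0.901). The fusion regulator tomosyn (Stxbp5) stood at 19.4, 22.6 and 54.2 in 5xFAD mice and at 15.4, 11.6 and 0 in WT mice, with the same adjusted p. These values did not overlap as listed, as was the case, 5xFAD higher, for 15.8% of overlay mRNAs. On one scale the genotypes overlapped for Stxbp5, with 5xFAD mouse 1 below WT mouse 1.

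The AD unique class held 5 of the 53 listed presynaptic mRNAs that were listed in 2 or more mice of either genotype (9.43%, against 15% of all 5444), and AD absent none (against 3.97%). Git2, a scaffold of the GIT family of liprin-α partners, stood at 16.4, 7.46 and 18.0 in 5xFAD mice 1, 2 and 3, and at 6.72 in WT mouse 1 and in no other WT mouse. The fusion protein Snap25 and the vesicle proteins Sv2a and Syp were each listed in 2 of 3 5xFAD mice, with a peak in WT mouse 1 for Snap25 and Sv2a and in no WT mouse for Syp. Over 10 alternatives Snap25 kept its class in 4 (1.60-fold on one scale), Sv2a and Syp in 7 each, and Git2 in 9 (1.02-fold with equal list lengths).

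Markers of the cell types in the hippocampus were summed in the same way, as enrichment and not as mRNA level. For neuronal markers (10 of 12 with a peak, Neurod2 and Camk2a with none) the sum was 336 to 413 in 5xFAD mice and 210 to 294 in WT mice, and 273 to 335 against 269 to 331 on one scale. Microglial markers (7 of 8 with a peak, Trem2 with none) summed to 184 to 209 in 5xFAD mice and 24.9 to 45.0 in WT mice, and to 138 to 169 against 35.3 to 53.4 on one scale. Astrocyte markers (4 of 6, Aqp4 and Gja1 with none) summed to 81.0 to 115 in 5xFAD mice and 59.6 to 66.9 in WT mice, but to 70.3 to 76.9 against 67.0 to 94.9 on one scale. Oligodendrocyte markers (4 of 6) summed to 231 to 262 in 5xFAD mice and 154 to 196 in WT mice, but to 153 to 241 against 215 to 233 on one scale. Vascular markers (2 of 4, Cldn5 and Pecam1 with none) summed to 60.7 to 125 in 5xFAD mice and 23.3 to 47.6 in WT mice, and to 53.2 to 82.9 against 33.0 to 56.5 on one scale. On one scale the genotypes thus stayed apart for microglial markers alone. Choroid plexus markers (2 of 3, Kcnj13 with none) summed to 0 to 67.0 in 5xFAD mice and 6.92 to 42.3 in WT mice, overlapping on both scales. The part of cell composition in the Rims1 and Ppfia1 values was not tested.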

How the data were processed

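Reads were checked (FastQC), trimmed (cutadapt 1.9.3) and aligned to mm10 (HISAT2 2.04) by the authors, as the labels and methods state, and MACS called peaks for each mouse, IP against input. The deposited fold enrichment is a ratio, the deposited score grows as the caller's p shrinks (lowest 40, a p of 0.0001), and the FDR that the authors deposited is in percent. Tables hold no read counts, so depth is unknown. By the methods, IgG signal was subtracted before division by input, and peaks overlapping IgG peaks were dropped. All listed peaks were kept. Peaks of 1 gene and strand that overlapped by at least 1 bp formed a region, which took a mouse's highest peak. limma 3.58.1 in R 4.3.3 was run on log2(fold enrichment + 1), a scale that understates changes of weak peaks, with Benjamini-Hochberg adjustment over all mRNAs or regions. The code was tried on simulated data with independent noise and no effect of the replicate number, which does not measure the power in these data. Alternatives were another pseudocount, other filters, scales and overlaps, the highest peak, equal list lengths, the replicate block and each mouse left out. Replicate numbers come from the labels. Deviations from the genotype means correlated at 0.63, 0.56 and 0.42 between same-numbered mice and at -0.34 to -0.18 between others. Differences within a number are therefore also given. The limma SEs and p-values, however, ignored the number except where the block is named. With the block the SE was smaller for every listed member, at 0.35 against 0.97 for Ppfia3 and 0.51 against 0.94 for Rims2. For Rims1 it was nearly the same, at 0.55 against 0.56, and no member passed adjustment. Exon numbers follow the RefSeq transcript most often listed for a gene, and peak starts, counted from 0 in the tables, are given from 1. Named genes were all 10 members, the strongest and most widely found regions, and up to 8 other presynaptic genes with the smallest p or of the AD unique class, some of which are not reported here. Members and lists were chosen with earlier results of these data known. Each mouse is 1 sample, and p-values measure the spread between these mice.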

Additional observations from a re-analysis of the deposited data

How the results depend on the processing

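The tables carry no read counts, so counting error and the lowest detectable enrichment are unknown, and an exon without a peak may be undetected. No active zone mRNA was called under any alternative, and Rims1 stayed higher and Ppfia1 lower in 5xFAD in each, but with the highest peak in place of the sum the log2 difference was 0.71 for Rims1 and -0.34 for Ppfia1 (limma adjusted p = 0.822 and 0.830). The replicate block changed no call. Directions turned for Ppfia3 (-0.11 on one scale, with overlay or all reliable mRNAs, and -0.22 without WT replicate 3), for Rims2 (-0.051) and Erc1 (0.11) with the highest peak, for Erc1 without 5xFAD replicate 1 (0.25) or WT replicate 3 (0.06), and for Rimbp2 without 5xFAD replicate 3 (0.70). On one scale they turned for Bsn exon 12 (-0.053) and Erc2 exon 1 (-0.18). Leaving out a mouse moved the log2 difference of Rims1 between 1.07 and 1.72 and of Ppfia1 between -1.90 and -1.10, while Erc1 moved between -0.56 and 0.25, Ppfia3 between -0.22 and 1.29 and Rimbp2 between -1.56 and 0.70. Overlay mRNAs called numbered 11 by the number of peaks and 7 with equal top peaks as well, both chosen after seeing the data, and 0 otherwise. Regions called, 0 as reported, were 195 on one scale, 284 with a pseudocount of 0.1, 287 in 3 of 3 mice and 0 to 829 with a mouse left out. Of these, 0 were active zone regions on one scale, and 1, Rims1 exon 30, with the pseudocount of 0.1, in 3 of 3 mice and without 5xFAD replicate 3 (0 to 1 over the mice left out). AD unique mRNAs were 485 with equal top peaks, 506 in 3 of 3 mice and 432 to 1316 with a mouse left out. AD absent mRNAs were 358 on one scale, 371 with equal top peaks, 76 in 3 of 3 mice and 154 to 443 with a mouse left out. None of these was an active zone mRNA.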
